A study of Mus musculus with 2 samples.

Results

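The genes described here are the well expressed Zfp genes of the adult mouse testis. Zfp is the mouse prefix for zinc finger proteins. A gene was included when it is protein-coding, its symbol is Zfp followed by a digit, and its mean level over both libraries was at least 10 TPM. TPM is the number of transcripts of a gene per 1000000 transcripts, corrected for transcript length. Of 394 protein-coding Zfp genes measured, 75 met the rule, which is 19.0%. Of all 21474 protein-coding genes, 7513 (35.0%) had a mean of at least 10 TPM. The levels chose the genes, so they are given below as a description and not as a test.

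The samples were 2 poly(A)-selected RNA libraries of whole testis, called biological replicate 1 and biological replicate 2, from C57BL/6J males 8 weeks old. Both belong to the same group, with no treatment and no altered allele given, so no comparison of conditions exists. The males are described as littermates, but both libraries carry the same donor label, and whether they came from separate animals is not settled. The spread between the libraries may therefore not be a spread between animals, and any SD has n = 2. The libraries also differed in markers of other tissue, as given below. Whole tissue was used, so a low level may mean few cells with the RNA or little RNA in each cell, which cannot be told apart.

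A zinc finger is a short fold of the protein chain held by a zinc ion. In the common C2H2 type, a pair of cysteines and a pair of histidines bind the zinc, and each finger in a row can contact a few bases of DNA. Many mouse Zfp proteins also carry a KRAB domain, which recruits the corepressor TRIM28 and through it enzymes that add repressive chromatin marks, and many of these repress retroelements. KRAB genes have multiplied by local duplication and often lie in clusters. Other Zfp proteins have no KRAB domain and act in transcription, RNA binding, ubiquitin or SUMO transfer, or at the spindle.

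Coding sequences of 1 finger each are shown for 6 members, because the finger is the unit by which the family is recognised and these genes recur below. Each is the first finger of the leading finger-coding transcript that runs into the usual linker to the next finger, read in the coding direction from GENCODE M21 on mm10. Capitals mark the codons of the 2 cysteines and 2 histidines that hold the zinc. A finger of Zfp36l1 is added because it is of another type, CCCH, with 3 cysteines and 1 histidine.
Zfp574 (chr7:25072567-25083492, plus strand, finger 9 of 18): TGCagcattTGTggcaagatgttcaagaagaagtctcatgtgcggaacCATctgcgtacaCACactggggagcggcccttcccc
Zfp219 (chr14:52006077-52020733, minus strand, finger 7 of 9): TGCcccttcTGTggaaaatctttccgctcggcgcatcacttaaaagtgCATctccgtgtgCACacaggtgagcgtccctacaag
Zfp37 (chr4:62189540-62231047, minus strand, finger 1 of 12): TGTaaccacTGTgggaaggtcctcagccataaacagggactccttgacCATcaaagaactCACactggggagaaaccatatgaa
Zfp39 (chr11:58888153-58904225, minus strand, finger 2 of 12): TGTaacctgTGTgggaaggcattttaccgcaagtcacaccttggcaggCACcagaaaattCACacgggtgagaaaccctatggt
Zfp87 (chr13:67515781-67526177, minus strand, finger 1 of 15): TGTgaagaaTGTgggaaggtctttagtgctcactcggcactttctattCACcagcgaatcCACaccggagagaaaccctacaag
Zfp607b (chr7:27689340-27706484, plus strand, finger 3 of 17): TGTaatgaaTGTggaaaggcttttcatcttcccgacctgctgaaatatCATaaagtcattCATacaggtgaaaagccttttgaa
Zfp36l1 (chr12:80107754-80113013, minus strand): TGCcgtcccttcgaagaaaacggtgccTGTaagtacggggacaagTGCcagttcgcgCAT

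The 84 bases of the C2H2 fingers were the same at 41.7% of positions between Zfp574 and Zfp607b, the least alike of the 15 pairs. They were the same at 63.1% between Zfp37 and Zfp87, the most alike pair. Zfp37, Zfp39, Zfp87 and Zfp607b carry a KRAB stretch. The 3 pairs among Zfp37, Zfp39 and Zfp87 were the most alike, but those of Zfp607b with them, at 53.6% to 54.8%, were no more alike than Zfp574 and Zfp219, at 54.8%, which carry none.

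Expected counts, the authors' estimates of reads per gene, summed to 50374324 in replicate 1 and 52788929 in replicate 2, spike-in RNA included. All 9 germ cell markers searched reached 1 TPM in each library and so counted as detected, with summed TPM of 67411 and 64247. Markers of Sertoli and Leydig cells were detected as well, 6 of 6 and 5 of 5. The libraries were not alike in markers of other tissue. The 4 markers of peritubular muscle summed to 259 TPM in replicate 1 and 118 in replicate 2, and all 4 were past 1.5-fold higher in replicate 1. Whether their RNA came from peritubular cells or from other muscle was not tested. The 7 epididymis markers summed to 658 TPM in replicate 1 and 3.74 in replicate 2. Crisp1, with 454 and 0.20 TPM, and Spink8, with 194 and 0.25, made up most of the sum. Adam7, with 6.87 and 0, and Rnase9, with 0.90 and 0.02, were also higher in replicate 1. Rnase10 was higher in replicate 2, with 2.42 and 3.23, and Lcn8 and Lcn9 were at or near 0 in both. The 6 Sertoli markers ran the other way, with a summed TPM of 1363 in replicate 1 and 1740 in replicate 2. Clu alone held 1193 and 1524 of these sums, and none of the 6 was past 1.5-fold. The part of these tissues in the values of the Zfp genes was not tested.

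The 75 genes together took 2594 TPM in replicate 1 and 2555 in replicate 2, or 0.259% and 0.256% of all TPM. They held 79.2% and 78.2% of the TPM of all Zfp genes. Their expected counts were 282919 in replicate 1 and 286795 in replicate 2, which is 0.577% (95% Wilson interval 0.575 to 0.579) and 0.557% (0.555 to 0.559) of the counts of genes, spike-in RNA left out. These intervals cover counting error only. The fewest counts were 206 and 352, both for Zfp993, and the median gene had 2293 and 2315.

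Most of the 75 genes stood at modest levels. The median of the mean TPM was 25.5, against 1.81 for all Zfp genes and 3.58 for all protein-coding genes. Of the 75, 3 had a mean of at least 100 TPM, 12 lay from 50 to under 100, 29 from 20 to under 50, and 31 from 10 to under 20. Of the 75, 68 reached 10 TPM in each library. The highest, Zfp574, was number 931 among protein-coding genes, and it stood 17.7 times above the lowest, Zfp652.

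**Figure D1:**
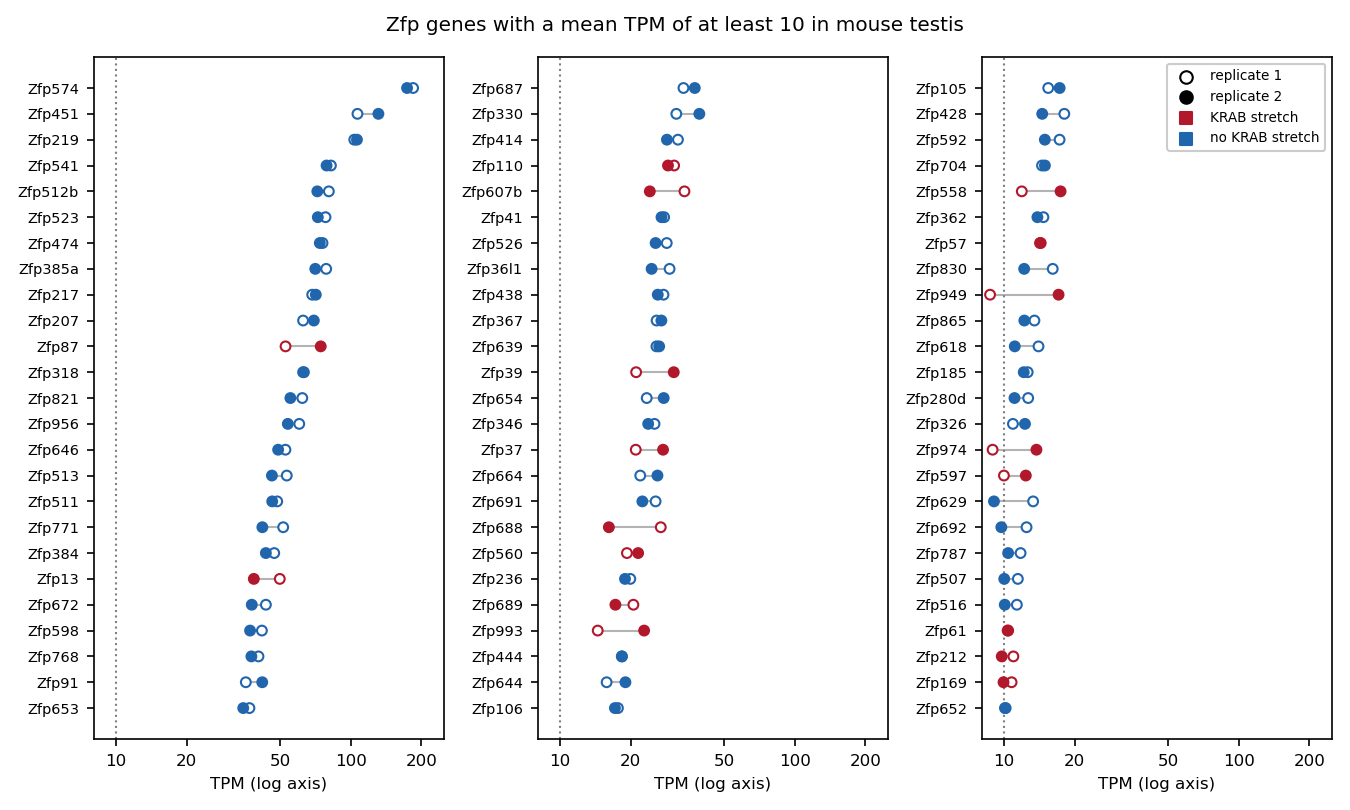
TPM (log axis) of the 75 Zfp genes in replicate 1 (open circles) and replicate 2 (filled circles), ordered by mean TPM and coloured by whether the protein carries a KRAB stretch; the dotted line is the minimum of 10 TPM. The levels fall from 179 for Zfp574 to 10.1 for Zfp652, and most pairs of circles lie close together, with Zfp688, Zfp949, Zfp974 and Zfp993 farther apart.

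Zfp574, a protein with 18 fingers and no KRAB stretch, stood at 185 TPM in replicate 1 and at 174 in replicate 2 (mean 179 ± 7.51, SD). Zfp219, known as a partner of SOX9 in cartilage, had 104 and 106 (mean 105 ± 1.96, SD). Zfp451, a SUMO ligase, had 107 and 131 (mean 119 ± 17.3, SD). These were the 3 genes above 100 TPM, and Zfp574 was the highest in each library.

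Some genes with described germ line roles were among the next. Zfp541, a component of a histone deacetylase complex that spermatocytes need to leave meiosis, stood at 82.3 TPM in replicate 1 and at 78.9 in replicate 2. Zfp318, also called testicular zinc finger protein, had 63.2 and 62.7. Each differed little between the libraries, with an SD of 2.43 and 0.361 TPM. Zfp37 and Zfp39, KRAB genes described in male germ cells, had lower and less even levels. Zfp37 had 20.99 and 27.5 TPM, and Zfp39 had 21.1 and 30.5. Zfp105, another testis zinc finger gene, had 15.4 and 17.2. Zfp57, the KRAB protein that keeps the methylation of imprinted regions, had 14.2 and 14.3.

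Other genes among the 12 highest had similar levels. Zfp217, a partner of the LSD1 and CoREST repressor complex, had a TPM of 68.5 and 71.0. Zfp523, whose human relative is ZNF76, had 78.1 and 72.4. Zfp512b had 80.7 and 72.0. These genes were close to each other and to Zfp541, and their order was not the same in both libraries.

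Several of the 75 proteins have described roles in RNA binding, at the ribosome or at the spindle. Zfp207, known as BuGZ, a partner of BUB3 at kinetochores and the spindle, stood at 62.7 TPM in replicate 1 and at 69.6 in replicate 2. Zfp598, the ubiquitin ligase that marks collided ribosomes, had 41.8 and 37.2. Zfp385a, described as a cofactor of p53 and a binder of RNA, had 78.6 and 70.6. Zfp36l1, which binds AU-rich elements and brings mRNAs to decay, had 29.3 and 24.5. Its relatives Zfp36 and Zfp36l2 were under the minimum, with 6.13 and 5.08 TPM and with 5.55 and 4.70. Zfp106, an RNA-binding protein required by motor neurons, had 17.6 and 17.1. Zfp474, for which no role is given here, had 75.8 and 73.8.

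A list of 31 Zfp genes with roles described in the germ line, imprinting, retroelement silencing, RNA decay or development was also examined. Of these, 12 were among the 75, and 30 of 31 were detected. For all 394 Zfp genes the shares were 19.0% and 59.4%. The 12 are Zfp541, Zfp318, Zfp37, Zfp39, Zfp57, Zfp105, Zfp36l1, Zfp207, Zfp106, Zfp598, Zfp217 and Zfp219. KRAB genes of this list known for silencing retroelements were lower, with a TPM of 3.95 and 4.16 for Zfp809, 3.95 and 6.70 for Zfp932, and 9.45 and 8.03 for Zfp819. Zfp445, which like Zfp57 protects imprints, had 6.69 and 7.61. Also on this list and under the minimum were Zfp35, with 7.95 and 9.58 TPM, Zfp42, with 3.41 and 3.17, and Zfp59, with 1.89 and 2.16.

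At the boundary of the rule, the 3 genes just inside were Zfp212, Zfp169 and Zfp652. Zfp212 had a TPM of 10.9 and 9.76, Zfp169 had 10.8 and 9.93, and Zfp652 had 10.1 and 10.1. Just outside lay Zfp263 with 9.84 and 10.1, Zfp524 with 10.4 and 9.20, and Zfp706 with 9.87 and 9.56. The values inside and outside overlap, so the boundary separates no distinct group.

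The 75 genes differed most plainly from the other Zfp genes in the KRAB domain, which the rule did not use. A KRAB stretch, found as a match to a profile of the A box of the domain in any coding transcript, was present in 18 of the 75 (24.0%). It was present in 216 of the 319 Zfp genes under the minimum (67.7%). Counted the other way, 18 of 234 Zfp genes with KRAB (7.69%) reached 10 TPM, and 57 of 160 without KRAB (35.6%) did, close to the 35.0% of all protein-coding genes. The median level of Zfp genes with KRAB was 0.805 TPM in replicate 1 and 1.01 in replicate 2, against 6.03 and 5.89 for those without. The same order was found in both libraries. No test was made, since the levels chose the genes and neighbouring genes are copies of each other.

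The number of fingers followed the same line. The 75 genes had a median of 7 fingers, with 16 of 75 (21.3%) holding 11 or more. The genes under the minimum had a median of 11, with 177 of 319 (55.5%) holding 11 or more. The linker between fingers, TGEKP or TGERP in the protein, was found in 39 of 75 (52.0%) and in 268 of 319 (84.0%). Within the KRAB class, 5 of 12 genes with 1 to 5 fingers, 5 of 69 with 6 to 10 and 8 of 150 with 11 or more reached 10 TPM. Zfp993 is among those with 1 to 5, but its finger-coding transcript is marked as incomplete at the 3′ end. Its count of 2 fingers may therefore be too low. Without KRAB, the counts were 24 of 60, 21 of 44 and 8 of 43. Among genes with fingers, those with 11 or more were thus the least often among the 75 in either class. With KRAB, the shares for 6 to 10 and for 11 or more were close, at 7.25% and 5.33%.

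The most fingers among the 75 were in Zfp236, with 30 and a TPM of 19.9 and 18.9, and in Zfp646, with 27 and a TPM of 52.7 and 49.0. The C2H2 pattern was absent from 4 of the 75, which are Zfp474, Zfp330, Zfp185 and Zfp36l1. Zfp185 is a LIM domain protein of the actin cytoskeleton, and Zfp36l1 has the CCCH fingers shown above. Zfp330 had a TPM of 31.3 and 39.2, and Zfp185 had 12.6 and 12.1.

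The 18 genes with KRAB had a median of 18.7 TPM and the 57 without had 26.9. The highest with KRAB were Zfp87, with 52.7 and 74.5 TPM, and Zfp13, with 49.8 and 38.6. Zfp110, a protein that binds a neurotrophin receptor, had 30.6 and 28.8, and Zfp607b had 33.9 and 24.1. None of the 10 highest of the 75 genes carries KRAB.

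The partners of KRAB proteins were present at higher levels than most KRAB genes. In a list of 20 genes for TRIM28, its chromatin partners and other genes that act beside it, all 20 were detected and 13 had a mean of at least 10 TPM. For all protein-coding genes the shares were 62.1% and 35.0%. Trim28 itself, the corepressor that KRAB binds, stood at 449 TPM in replicate 1 and at 444 in replicate 2. Daxx, a histone H3.3 chaperone, had 127 and 116. The lowest by the mean was Dnmt3b, a DNA methyltransferase, with 2.09 and 2.50, although Smarcad1 was lower in replicate 1, with 1.86 and 2.87.

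Of 29 C2H2 genes with other names, 23 were detected and 7 had a mean of at least 10 TPM, against the same 62.1% and 35.0%. The highest were Zbtb32, with 181 and 156 TPM, Klf4, with 137 and 105, and Zscan21, with 51.7 and 44.5. The lowest, Zscan4c, was at 0 in replicate 1 and 0.03 in replicate 2. The levels of Zbtb32 and Klf4 lay within the range of the highest Zfp genes.

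Position in the genome was read from GENCODE M21 on mm10. Zfp genes no more than 500 kb apart were joined, and runs of at least 3 were called clusters. This gave 33 clusters with 238 of the 394 Zfp genes. Of the 75 genes, 27 (36.0%) lie in a cluster, against 211 of the 319 under the minimum (66.1%). KRAB and clustering go together, since 192 of 234 KRAB genes are clustered. Within clusters, 12 of 192 genes with KRAB (6.25%) and 15 of 46 without (32.6%) reached 10 TPM. Outside clusters, 6 of 42 with KRAB (14.3%) and 42 of 114 without (36.8%) did. The shares thus differed more by KRAB than by clustering.

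**Figure D2:**
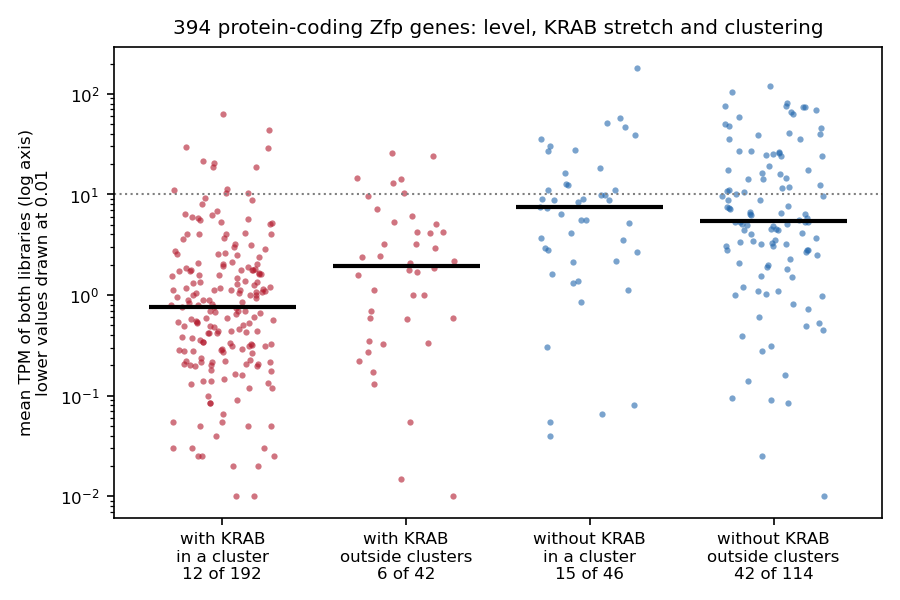
Mean TPM of both libraries (log axis) for all 394 protein-coding Zfp genes by KRAB stretch and by position in a cluster, 1 point a gene, with the median as a black bar and the minimum of 10 TPM dotted; the numbers under the groups are genes at or above the minimum out of all. The medians are 0.758 and 1.95 TPM for genes with KRAB in and outside clusters, and 7.47 and 5.49 for genes without.

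The 75 genes are spread over 19 chromosomes, and 20 of them lie on chromosome 7, which holds 92 of the 394 Zfp genes. A chromosome 7 cluster from 127233061 to 127885996 had the most, 6 of its 10 genes. They are Zfp771, Zfp768, Zfp688, Zfp689, Zfp629 and Zfp646, and the 3 highest were Zfp646 with a TPM of 52.7 and 49.0, Zfp771 with 51.5 and 42.0, and Zfp768 with 40.4 and 37.7. All 6 were lower in replicate 2, as were 48 of the 75 genes, and the GC content of their transcripts ran from 53.4% to 68.7%. Of the 45 genes among the 75 with 50% or more, 6 were higher in replicate 2. A second chromosome 7 cluster, from 24081924 to 25227507, had 4 of 14. Its 3 highest were Zfp574, described above, Zfp526 with 28.5 and 25.5 TPM, and Zfp428 with 18.0 and 14.5. Zfp574 alone held most of the summed TPM of that cluster, which was 263 in replicate 1 and 246 in replicate 2.

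The largest clusters had few of the 75 genes. A chromosome 13 cluster of 23 genes had Zfp87 alone at or above 10 TPM, and its median gene had 0.385 TPM. A chromosome 17 cluster of 23 genes had Zfp13 alone, with a median of 0.505. A chromosome 4 cluster of 18 genes had Zfp993 alone, with a median of 0.378. All but 3 of these 64 genes carry KRAB. In all, 17 of the 33 clusters, with 81 genes, had none of the 75.

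**Figure D3:**
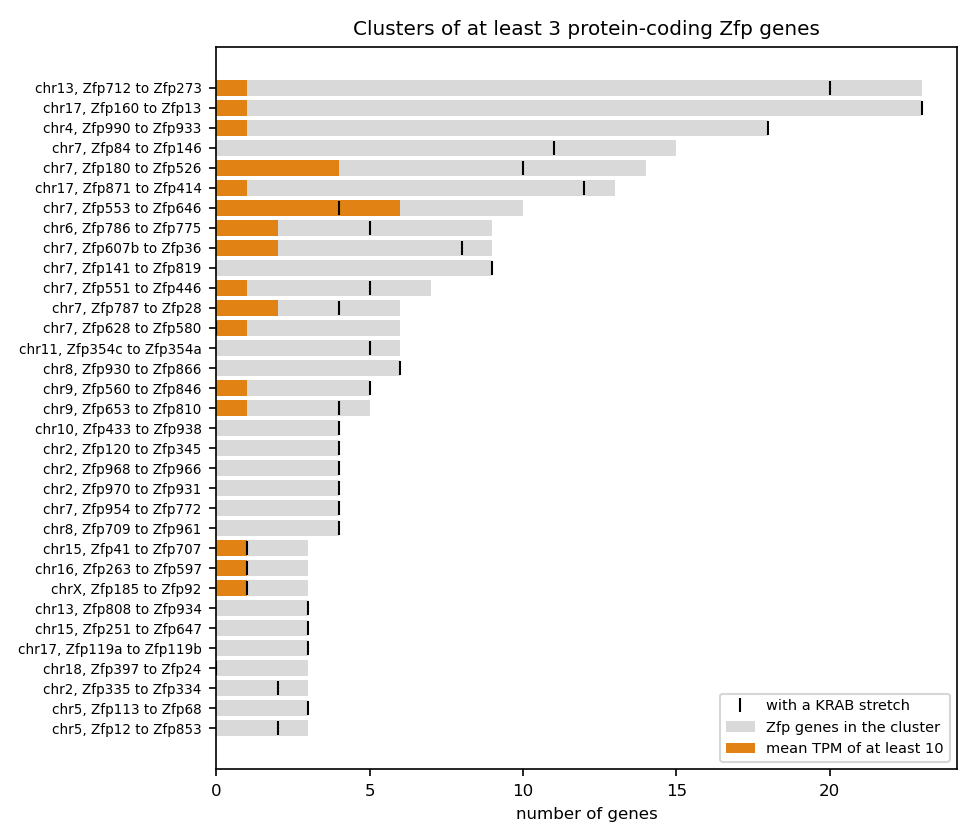
Clusters of at least 3 protein-coding Zfp genes, named by chromosome and by first and last gene, with the number of genes (grey bars), of genes with a mean of at least 10 TPM (orange bars) and of genes with a KRAB stretch (black ticks) on the x axis. The 3 largest clusters have 1 gene each at or above 10 TPM, and the chromosome 7 cluster from Zfp553 to Zfp646 has 6 of 10.

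A gene's TPM sums its transcripts, and these do not all code for fingers. Of the 71 genes with a finger pattern, 12 had a leading transcript, the one with the highest mean TPM, that codes for none. They are Zfp451, Zfp87, Zfp607b, Zfp367, Zfp688, Zfp560, Zfp993, Zfp644, Zfp558, Zfp949, Zfp974 and Zfp597. Of the 12, 9 carry KRAB, so that 9 of 18 genes with KRAB and 3 of 53 with fingers but no KRAB were led in this way. For Zfp688 this holds by the mean and in replicate 2, since a finger-coding transcript led it in replicate 1 with 37.3% of the TPM, against 27.4%. The other 11 were led by a transcript without fingers in each library. Counts gave a different picture from TPM. Finger-coding transcripts held the smaller part of the counts in both libraries in 6 of the 12. These are Zfp451, Zfp87, Zfp607b, Zfp688, Zfp560 and Zfp558. They held the larger part in Zfp367 (77.1% and 76.7%), Zfp597 (71.4% and 70.4%), Zfp949 (68.3% and 57.7%), Zfp993 (57.4% and 61.1%) and Zfp644 (51.6% and 53.3%). In Zfp974 they held 48.4% and 52.5%. Among Zfp genes that were detected but under the minimum, 18 of 155 had a leading transcript, by the mean, that codes for no finger although the gene has fingers. When only finger-coding transcripts were summed, 55 of 71 genes kept a mean of at least 10 TPM, 7 of 18 with KRAB and 48 of 53 without. This sum includes finger-coding transcripts annotated as targets of nonsense-mediated decay, and the count without them was not made. In Zfp652, among the 55, Zfp652-204 and Zfp652-203 are such targets. They held 41.7% and 37.8% of its TPM in replicate 1, and 37.2% and 39.4% in replicate 2. Its other finger-coding transcripts had 1.9 and 0.16 TPM in replicate 1, and 2.04 and 0.34 in replicate 2.

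Zfp87, the highest of the genes with KRAB, is an example. Its leading transcript is 382 bases long and had 370 counts in replicate 1 and 535 in replicate 2, which gives a TPM of 50.9 and 72.4. Its finger-coding transcript is 2656 bases long and had 183 and 219 counts, which gives 1.84 and 2.13. TPM divides by length, so the short transcript took 96.5% and 97.2% of the gene's TPM but a smaller share of its reads, since 33.0% and 29.1% of counts went to the finger-coding transcript. The short transcript has its own coding part of 153 bases, shown because it holds the A box of KRAB, in capitals, and then stops before any finger.
Zfp87-203 (chromosome 13, coding part, bases 1 to 153): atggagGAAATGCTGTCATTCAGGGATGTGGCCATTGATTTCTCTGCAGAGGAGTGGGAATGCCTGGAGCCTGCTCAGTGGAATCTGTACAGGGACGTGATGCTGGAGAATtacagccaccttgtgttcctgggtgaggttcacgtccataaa

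The other genes of this kind differed in what the leading transcript was. In 5 of the 12, Zfp87, Zfp688, Zfp993, Zfp949 and Zfp974, it codes for a KRAB stretch without fingers, and in 7 of the 12 it has a coding part at all. The models leading Zfp949 and Zfp974 are marked in the annotation as incomplete at the 3′ end, so they may stop before fingers that the RNA holds. Zfp607b was led by a retained-intron transcript with 89.4% and 85.4% of its TPM, and its finger-coding transcripts had a TPM of 1.62 and 2.08. Zfp560 was led by a transcript with a coding part of 39 codons, and its finger-coding transcript had 0.360 and 0.370 TPM. Zfp451 was led by a transcript annotated as a target of nonsense-mediated decay, with 52.8% of its TPM in replicate 1 and 30.9% in replicate 2, where another such transcript held slightly more. Finger-coding transcripts of Zfp451 had a TPM of 31.6 and 43.5, so it remained above 10 TPM without the others.

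**Figure D4:**
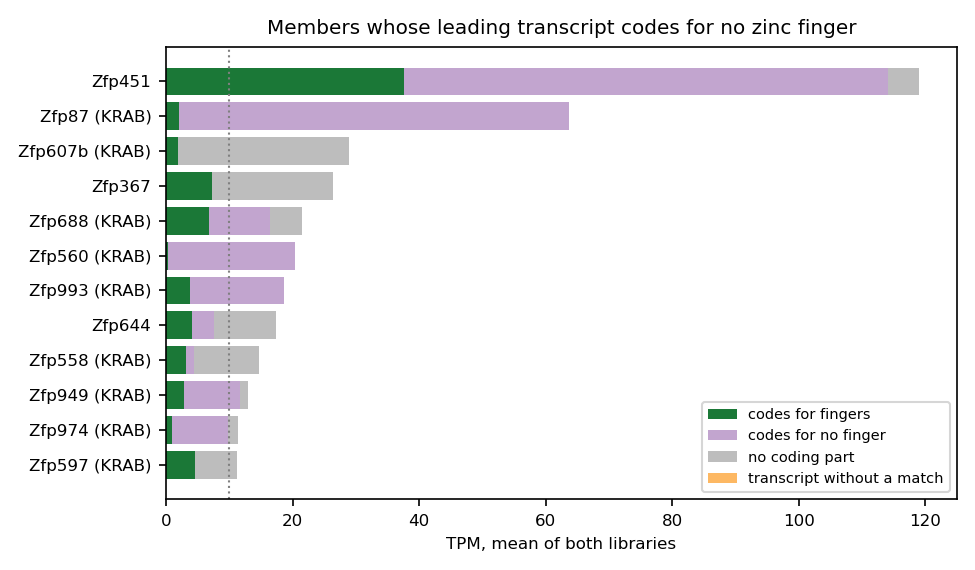
TPM, as the mean of both libraries, of the 12 genes whose leading transcript codes for no finger, split into transcripts that code for fingers (green), that code for a protein part without fingers (purple) and that have no coding part (grey); the dotted line is 10 TPM. The finger-coding part is above the line for Zfp451 only, and is 1.99 TPM for Zfp87 and 1.85 for Zfp607b.

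Among all 75 genes, 16 had their whole TPM in 1 transcript in both libraries, Zfp541, Zfp385a and Zfp39 among them. In 23 genes the leading transcript held under 60% of the TPM. The smallest shares were in Zfp280d, with 18.5% and 21.9%, Zfp949, with 15.0% and 49.5%, Zfp688, with 27.4% and 45.1%, Zfp652, with 41.7% and 37.2%, and Zfp236, with 39.3% and 39.8%. The shares of Zfp949 and Zfp688 differed widely between the libraries, and those of Zfp236 did not.

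Reads that fit more than 1 gene are split between these genes in an expected count, so likeness to other genes limits a value. Of the 75 genes, 54 (72.0%) shared no window of 76 bases, the read length, with a transcript of another gene, against 164 of 319 (51.4%) under the minimum. Only Zfp993 and Zfp414 shared more than 20% of windows. Zfp993 shared 78.4%, mostly with its neighbour Zfp991, and its level is uncertain for that reason. The first 76 coding bases of its finger-coding transcript show it, since they stand unbroken in Zfp991 too, with the start of the KRAB A box in capitals.
Zfp993-202 (chromosome 4, coding bases 1 to 76): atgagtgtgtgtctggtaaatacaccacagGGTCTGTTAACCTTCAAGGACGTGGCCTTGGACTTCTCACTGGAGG

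The authors' second estimate, the posterior mean TPM, was within 5% of the TPM for 71 of the 75 genes. The widest differences were in Zfp629, with a posterior mean of 15.4 against a TPM of 13.3 in replicate 1. In replicate 2 it had 11.6 against 9.04, on either side of the minimum of 10. Zfp61 had 11.3 against 10.4 in replicate 1 and 11.16 against 10.34 in replicate 2. In the same order, Zfp280d had 13.4 against 12.7 and 12.2 against 11.1, and Zfp57 had 15.2 against 14.2 and 15.15 against 14.3. In all 4 the posterior mean was the higher, and none left the 75 by it.

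The libraries gave much the same order of the 75 genes, with a Spearman rank correlation of TPM of 0.947 across them. The Pearson correlation of log2 TPM was 0.962. Both values are descriptions across genes, which are not independent and were chosen by their level. Differences were measured as the log2 ratio of replicate 2 over replicate 1 in counts scaled by the TMM method, with a 95% binomial interval for counting error. With 1 library on each side there is no replicate check and no test. Of the 75 genes, 2 were past 1.5-fold, which is 2.67%. Of 16355 protein-coding genes that had 10 or more counts in each library, 10.6% were past it, and of the 7498 among them with a mean of at least 10 TPM, 2.52%. The count for the 75 is thus near that for genes of the same level. Both were higher in replicate 2, in which direction 4.1% of the 16355 and 1.13% of the 7498 were past it. None was past it in the other direction, against 6.51% and 1.39%.

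Those past 1.5-fold were Zfp993 and Zfp974, both with KRAB and both higher in replicate 2. The counts of Zfp993 were 206 in replicate 1 and 352 in replicate 2. Its log2 ratio was 0.70 (0.44 to 0.95), and it shares most of its sequence with Zfp991. The 295 and 476 counts of Zfp974 gave 0.61 (0.40 to 0.83). Next on that side were Zfp39, with 0.52 (0.45 to 0.58), Zfp558, with 0.46 (0.28 to 0.64), and Zfp37, with 0.37 (0.30 to 0.44).

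On the other side, the 972 and 719 counts of Zfp688 gave -0.51 (-0.65 to -0.37). It was followed by Zfp830, with -0.43 (-0.57 to -0.28), Zfp672, with -0.40 (-0.47 to -0.32), Zfp13, with -0.39 (-0.45 to -0.32), and Zfp692, with -0.38 (-0.53 to -0.23). None of these was past 1.5-fold.

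Over the 75 genes the median log2 ratio was -0.08, with 27 higher in replicate 2 and 48 higher in replicate 1. Over all 16355 genes tested it was 0.00, and over the 7498 of the same level -0.01. The genes with KRAB had a median of 0.07 (n = 18) and those without -0.10 (n = 57). Among all Zfp genes tested, the medians were 0.19 with KRAB (n = 197) and -0.08 without (n = 150).

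The base composition of the transcripts moved with this difference. The median GC content was 43.8% for tested Zfp genes with KRAB and 51.6% for those without. Over all protein-coding genes tested, the median log2 ratio was 0.23 where GC was under 45%, and -0.15 where it was 55% or more. Of the 75 genes, 30 had a GC content under 50%, and 21 of these were higher in replicate 2. The other 45 had 50% or more, and 6 of these were higher in replicate 2. With the trend over GC removed, the medians of the KRAB classes of all tested Zfp genes were 0.03 and -0.03, that of the 75 genes was 0.02, and none of the 75 was past 1.5-fold.

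**Figure D5:**
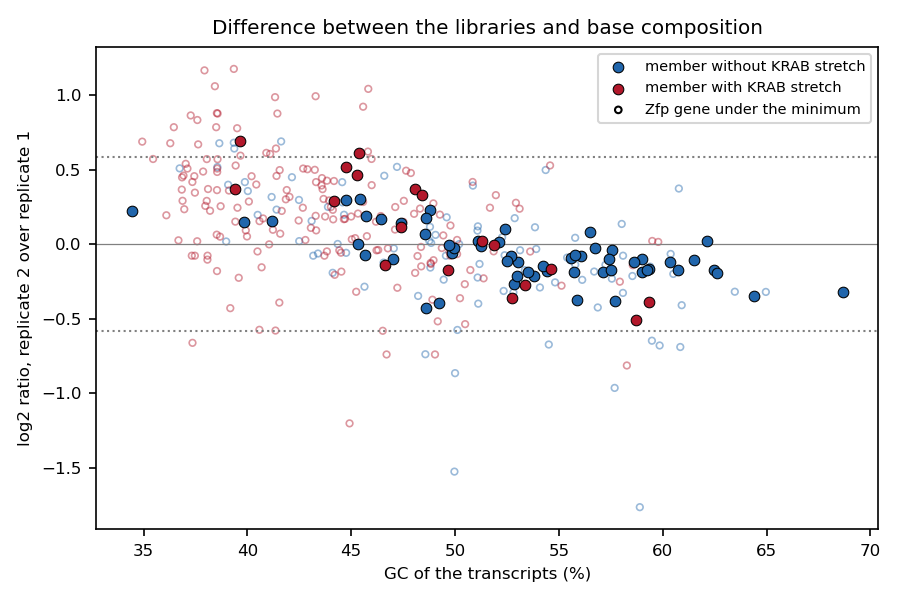
Log2 ratio of replicate 2 over replicate 1 against the GC content of the transcripts (%) for Zfp genes that had 10 or more counts in each library, with the 75 genes as filled points and the others as open points, red with and blue without a KRAB stretch; the dotted lines are 1.5-fold. Points with high GC content lie mostly below 0 (39 of 45 filled points at 50% or more), and 21 of the 30 filled points under 50% lie above it.

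A ratio of TPM could differ from that of counts where transcripts shifted. Zfp949 stood at 8.70 TPM in replicate 1 and at 17.1 in replicate 2, while its 533 and 707 counts gave 0.33 (0.17 to 0.50) on the log2 scale. Zfp451 had 107 and 131 TPM, but its counts of 13558 and 14299 gave a log2 ratio of 0.00 (-0.03 to 0.03). In both genes the share of the leading transcript differed between the libraries, as given above. Zfp217 had 68.5 and 71.0 TPM, but its counts of 14669 and 12885 gave -0.26 (-0.30 to -0.23), the opposite direction. Its finger-coding transcripts had 66.15 TPM in replicate 1 and 54.77 in replicate 2.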

How the data were processed

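Poly(A) RNA of mouse testis was measured in 2 libraries of 1 group by stranded paired sequencing. The deposited expected counts are the authors' unnormalised estimates of reads for each gene and transcript, per the file headers, and the authors scaled them to TPM. Posterior means of both are deposited too, and for each transcript the authors give its percent of the TPM of its gene. The build is mm10 with annotation M4, per the deposited readme, with aligner and counting program not given in the sources used here. Symbols, positions and coding parts were taken from GENCODE M21 (also mm10) by identifier without its version. Spike-in RNA took 2.68% and 2.51% of counts and stayed out of scaling and tests.

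The 75 genes, the gene lists and the tests were chosen with earlier results of these data known. Genes are named by rule: the 12 of highest TPM, 3 inside and 3 outside the minimum, the 5 highest in either library by log2 ratio, the 3 highest of each cluster with at least 3 of the 75, those with described roles, the 5 with the smallest leading share, the extremes of finger number, the largest differences from the posterior mean, and the 3 highest and the lowest of 2 other lists. Any other gene was picked for naming with its values in view. A gene that the rule names is not reported here.

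Coding parts were translated with Biopython 1.88 and searched for the C2H2 pattern (2 to 4 residues between cysteines, 12 to the first histidine, 3 to 5 between histidines), the linker, and KRAB by an ungapped profile of 35 residues built from 22 complete A boxes, with a minimum of 10 bits. A gene takes the best value over its coding transcripts. These translations replaced the RefSeq proteins first planned. Expected counts were rounded and scaled by TMM in edgeR 4.0.16 (R 4.3.3), with DESeq2 1.42.0 size factors as an alternative. Genes needed 10 counts in both libraries. The GC trend was removed as the median log2 ratio in 20 GC bins over all protein-coding genes tested. The ratio was tested on simulated counts with sampling noise only, which cannot show how the 1.5-fold calls hold in these libraries. The libraries differ by more than sampling noise, since a chi-square of their counts averaged 34.1 per gene over 26661 genes. Counts equal a whole number within 0.005 in both libraries for 59 of the 75 genes. The mm9 contigs and junctions were not used here. Alternatives were the minimum, the posterior means, the scaling, the fold, the cluster distance, the leading share, the KRAB search and each library alone.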

Additional observations from a re-analysis of the deposited data

How the results depend on the processing

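The number of Zfp genes at or above the minimum was 127 with a minimum of 5 TPM and 44 with a minimum of 20, against 75 at 10. With either library alone it was 73, and it was 68 with 10 TPM required in each and 78 with the posterior mean TPM. The share of the 75 genes in the whole was 0.552% of expected counts, spike-in RNA included in the total, against 0.257% of TPM, and 0.256% to 0.259% of TPM in single libraries. Past 1.5-fold were 4 of the 75 by the ratio of deposited TPM, 0 at 2-fold and 0 with the GC trend removed, against 2 in the main setting. The median log2 ratio was 0.017 with the GC trend removed, against -0.08. The number with a leading transcript under 50% of the TPM was 11, against 23 at 60%, and single libraries gave 21 to 23. By the end of the A box alone 8 of the 75 carried KRAB, and by a letter pattern of the later A box 7, against 18 by the profile. Under these stricter searches 167 and 153 of the 319 genes under the minimum did, so KRAB was the less frequent among the 75 in each. Clustered genes were 22 at 250 kb and 30 at 1000 kb, against 27. The finger-coding sum, the GC correction and the letter pattern were chosen after seeing the data. No paired analysis was possible because the study has only 1 group.

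The main limits are 2 libraries of 1 tissue, with no settled count of animals, and markers of epididymis and peritubular muscle that differed between the libraries. Short transcripts weigh heavily in TPM. The levels of several genes, among them Zfp87, Zfp607b, Zfp560, Zfp993, Zfp974, Zfp367 and Zfp558, thus rest mainly on short models. Zfp993 shares most of its sequence with Zfp991. The KRAB and finger counts are pattern matches in annotated coding parts, not observed proteins. Each of the 75 genes had over 200 counts in each library, but some short models rest on few. In replicate 1, 2 counts on a model of 215 bases gave 3.20 of the 13.3 TPM of Zfp629. In replicate 2 that model had none. The finger-coding transcripts of Zfp629 had 8.97 and 7.68 TPM, under the minimum of 10. The leading model of Zfp949 had 19.6 counts in replicate 1 and 130 in replicate 2.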
